A study of Homo sapiens with 6 samples.

Results

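The linker histone H1 genes H1-1, H1-2, H1-3, H1-4, H1-5 and H1-10 were followed in U2OS cells, an established human osteosarcoma line, after inhibition of poly(ADP-ribose) glycohydrolase (PARG). The 6 genes were taken from a list of H1 symbols and matched through their Ensembl identifiers, and all 6 were found among the 60708 gene rows. H1-1 to H1-5 are replication-dependent genes and H1-10 is a replacement gene. The genes were chosen by their counts in the same PARGi and DMSO libraries, which were known when they were proposed, so their differences between the groups are given as a description, with no test. Wild-type cells were kept for 4 days in the solvent DMSO (3 biological replicates) or in 25 µM PDD00017273, a small-molecule PARG inhibitor (PARGi, 3 biological replicates). No edited allele or transgene is named for either group.

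Linker histones bind the nucleosome where DNA enters and leaves it and help to fold chromatin. The replication-dependent members lie among core histone genes, have no intron and are transcribed mainly in S phase. Their mRNA mostly ends in a 3' stem-loop in place of a poly(A) tail. Replacement members are made outside S phase and from polyadenylated mRNA. H1 is also a classical acceptor of ADP-ribose, and PARP1, the main poly(ADP-ribose) polymerase, competes with H1 for binding to nucleosomes.

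The 5 replication-dependent genes lie on chromosome 6 and H1-10 on chromosome 3, and each is a single exon in GENCODE 29 (GRCh38). H1-2 spans 26055787 to 26056428 on the minus strand, and H1-10 spans 129314771 to 129316277 on the minus strand. Promoter windows reaching from 250 bases before the transcription start to 50 after it were found in RefSeq (GRCh38.p14) for all 6 genes. They were searched on both strands for AAACACA (the H1 box), CCAAT (the CCAAT box) and TATAAA (the TATA box), with no overlap between the matches. The promoters of 3 genes are shown because they set the highest replication-dependent gene, H1-2, beside H1-3, which has an H1 box and a CCAAT box at nearly the same places but was listed at 0 counts, and beside the replacement gene H1-10. Capitals mark the 3 motifs on either strand.
H1-2, chr6:26056421-26056720, minus strand: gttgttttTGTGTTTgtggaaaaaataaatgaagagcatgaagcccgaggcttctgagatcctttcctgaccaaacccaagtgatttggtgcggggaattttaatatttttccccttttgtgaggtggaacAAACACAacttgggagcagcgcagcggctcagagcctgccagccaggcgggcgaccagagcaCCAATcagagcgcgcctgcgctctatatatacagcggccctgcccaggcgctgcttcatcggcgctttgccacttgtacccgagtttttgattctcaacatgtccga
H1-3, chr6:26234938-26235237, minus strand: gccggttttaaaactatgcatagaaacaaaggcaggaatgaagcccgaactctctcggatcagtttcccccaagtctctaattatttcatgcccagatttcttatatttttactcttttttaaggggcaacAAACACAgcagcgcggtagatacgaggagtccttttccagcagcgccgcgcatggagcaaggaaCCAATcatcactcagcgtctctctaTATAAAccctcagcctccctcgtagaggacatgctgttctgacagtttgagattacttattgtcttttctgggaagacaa
H1-10, chr3:129316237-129316536, minus strand: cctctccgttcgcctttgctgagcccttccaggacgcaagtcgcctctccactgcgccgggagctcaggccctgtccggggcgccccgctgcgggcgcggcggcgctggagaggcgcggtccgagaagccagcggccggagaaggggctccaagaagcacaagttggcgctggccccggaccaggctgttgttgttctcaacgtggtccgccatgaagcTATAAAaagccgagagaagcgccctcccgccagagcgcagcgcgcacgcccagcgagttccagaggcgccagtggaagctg

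All 5 replication-dependent promoters held an H1 box and a CCAAT box, and 3 of them (H1-1, H1-3 and H1-4) also held TATAAA, while H1-2 and H1-5 did not. H1-2 and H1-5 held the letters TATATA between CCAAT and the start, which the exact search did not count. AAACACA began 117 bases before the start in H1-4 and H1-5 and 119 bases before it in H1-2 and H1-3, on the gene's strand. In H1-1 it was found on the opposite strand only, 183 bases before the start, and H1-2 and H1-5 each held a second match farther upstream. CCAAT began between 53 and 57 bases before the start on the gene's strand in all 5. H1-10 held neither motif in this window, and held TATAAA 31 bases before the start. Of 35116 promoters of the same length, 5.64% held AAACACA, 34.6% held CCAAT and 11.5% held TATAAA. These are matches of letters and say nothing of what binds there.

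**Figure D1:**
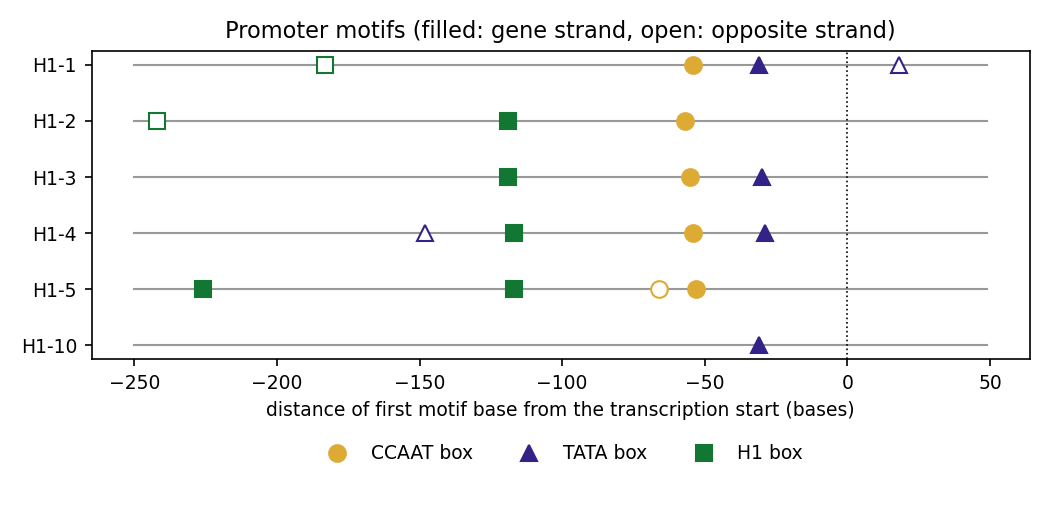
Positions of AAACACA (H1 box, squares), CCAAT (circles) and TATAAA (triangles) in the promoters of the 6 genes, by distance of the leftmost base of the match from the transcription start in bases. Filled symbols lie on the gene's strand and open ones on the opposite strand. The H1 box lies at 117 or 119 bases before the start in H1-2 to H1-5, and H1-10 has a TATA box alone.

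The libraries held between 60286931 and 80605145 counts. Of the 10 osteosarcoma line markers, COL1A1 (4130 to 4660 CPM), SPARC and VIM were abundant in every library. COL1A2 (6.65 to 14.3 CPM), ALPL (4.44 to 5.9 CPM) and SPP1 (1.38 to 2.14 CPM) were far less abundant, and TWIST1 had 0 to 2 counts. Of the 9 tested, 1 was higher and 5 were lower in PARGi. The 9 markers of epithelial and blood cells given here summed to 28.8 to 29.7 CPM in DMSO and 19.6 to 23 CPM in PARGi, most of it KRT14. Of the 5 tested, KRT14 fell from 22.4 to 14.3 CPM (edgeR adjusted p = 1.33e-08). CDH1 rose from 0.718 to 1.14 CPM (edgeR adjusted p = 0.0104, or 0.0785 without PARGi replicate 3). EPCAM (2.98 to 3.78 CPM), KRT5 (1.12 to 1.37 CPM) and PTPRC (1.09 to 1.32 CPM) were found in every library and did not pass the threshold. KRT20 and CD3E had at most 2 counts in a library, ITGAM at most 5 and HBB at most 6. The part of the cells that these markers stand for in the H1 levels was not tested. CPM are counts scaled to a common library size with the TMM method of edgeR. The quasi-likelihood test of edgeR was run on 20409 genes, of which 4951 passed a Benjamini-Hochberg adjusted p of 0.05, 2700 higher and 2251 lower in PARGi (54.5% of calls higher, or 40.5% with upper-quartile scaling).

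The 6 genes differed in level over several orders of magnitude. On the scale of CPM per kb of RefSeq length, the level in DMSO was 233 ± 5.35 for H1-10, 49 ± 0.757 for H1-2, 0.601 ± 0.123 for H1-4 and 0.0872 ± 0.051 for H1-1 (SD, n = 3). H1-3 and H1-5 were listed at 0 in all 6 libraries. The order was the same in PARGi, with levels of 187 ± 9.83, 24.8 ± 0.751, 0.427 ± 0.174 and 0.146 ± 0.106 CPM per kb (SD, n = 3). H1-10, H1-2 and H1-4 did not overlap one another in either group. H1-4 and H1-1 lay apart in DMSO, but in PARGi replicate 1 they had 12 and 11 counts, with exact 95% Poisson intervals of 6.2 to 21 and 5.49 to 19.7, so these neighbours were not distinguishable there. H1-2 made up 98.3% to 98.6% of the replication-dependent H1 counts in DMSO and 96.7% to 98.1% in PARGi.

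**Figure D2:**
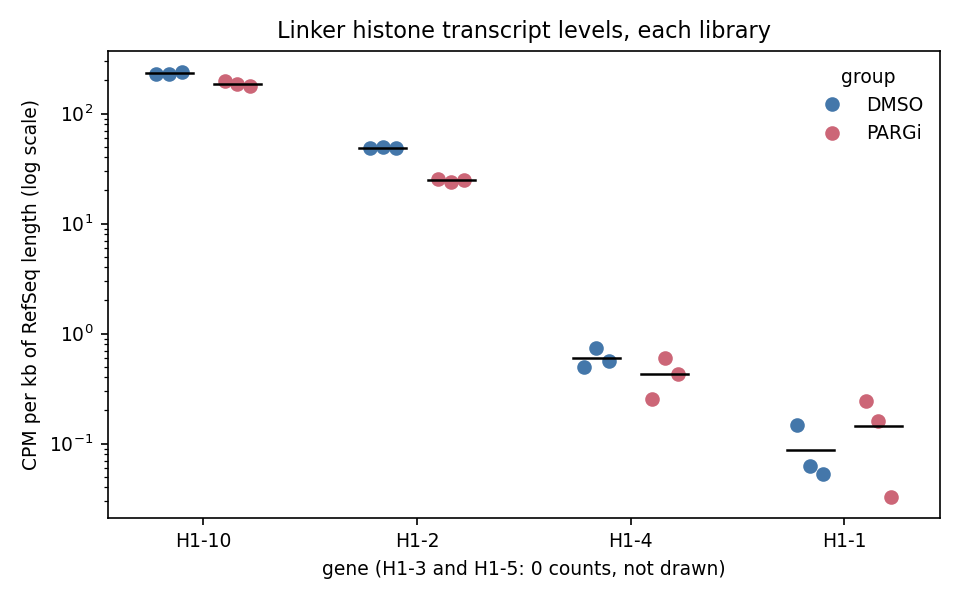
Level of each gene in each library, in CPM per kb of RefSeq length on a log scale, with black lines at the group means of 3 libraries. H1-10 and H1-2 are lower in all 3 PARGi libraries, while H1-4 and H1-1 overlap between the groups, and H1-3 and H1-5 had 0 counts and are not drawn.

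H1-2 encodes one of the most widely expressed somatic linker histones, and its transcript was lower in all 3 PARGi libraries. Replicates 1 to 3 gave 2275, 2316 and 2624 counts with DMSO, against 1114, 1294 and 1468 counts with PARGi. After scaling these were 35.8, 36.4 and 35.3 CPM with DMSO, against 18.6, 17.5 and 18.3 CPM with PARGi. The groups did not overlap, and the distance between them was far larger than the spread within either. The fitted difference of -0.98 on the log2 scale (SE 0.039, 95% interval -1.06 to -0.90) is a change of -49.5% (-52.2% to -46.6%). A difference of larger absolute size was fitted for 0.995% of the tested genes. In bulk RNA, fewer cells that transcribe a gene and less RNA per cell cannot be told apart.

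H1-10 encodes a replacement linker histone, and its transcript was lower in PARGi by a smaller proportion. Replicates 1 to 3 gave 22094, 22288 and 27012 counts with DMSO, against 17990, 20823 and 21748 counts with PARGi. In CPM these were 348, 350 and 363 with DMSO, against 300, 282 and 270 with PARGi. The groups did not overlap, although the highest PARGi library was nearer to DMSO than for H1-2. The fitted difference was -0.32 on the log2 scale (SE 0.03, 95% interval -0.38 to -0.25), a change of -19.7% (-23.2% to -16.2%). H1-10 was among the abundant transcripts of these cells: 2.26% of the tested genes had a higher mean CPM, and 17% of them differed by more in absolute log2 size.

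An antisense gene, H1-10-AS1, overlaps H1-10 on the opposite strand from 129315392 to 129316277, and it was lower in PARGi too. Its counts were 376, 423 and 506 in DMSO and 249, 314 and 350 in PARGi, with a log2 fold change of -0.60 (SE 0.078, edgeR adjusted p = 3.06e-06). Of the 1458 windows of 50 bases in the H1-10 transcript, 251 (17.2%) occur in H1-10-AS1, read on the other strand. The library kit keeps the strand, but how strand was used in counting is not given in the sources used here. At 4.15 to 6.8 CPM, H1-10-AS1 was far below H1-10 in every library.

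H1-4, a replication-dependent gene whose protein carries a lysine read by HP1 proteins when methylated, was barely detected. Its counts were 25, 37 and 33 in DMSO and 12, 35 and 27 in PARGi, or 0.394, 0.581 and 0.443 CPM against 0.2, 0.473 and 0.336 CPM. The groups overlapped. A log2 difference of -0.46 was fitted (SE 0.29, 95% interval -1.07 to 0.15), so that a change from -52.2% to 10.9% lay within the error. The estimate rested on single libraries: it was -0.23 without PARGi replicate 1, -0.29 without DMSO replicate 2 and -0.77 without PARGi replicate 2.

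H1-1 had 7, 3 and 3 counts in DMSO and 11, 9 and 2 counts in PARGi. The groups overlapped, the gene had too few counts for the test, and no fold change is given. H1-3 and H1-5 had 0 counts in each of the 6 libraries, and the floor set for a count of 0 is 3 counts, which is 0.0373 to 0.05 CPM depending on the library. The exact 95% Poisson interval used above for H1-4 and H1-1 reaches 3.69 counts for a count of 0. Such limits cover counting error only. Beside these zeros stand RN7SK, RMRP and RPPH1, abundant RNAs without a poly(A) tail that every cell uses, which were also listed at 0 counts in all 6 libraries, although the label names a kit for total RNA. RN7SL1, which likewise has no poly(A) tail, was detected with 5258 to 6598 counts in a library. These RNAs were chosen after their values were seen. Their bearing on the zeros of H1-3 and H1-5, on the level of H1-2 and on its ratio to H1-10 was not tested. Whether capture or counting set the zeros of RN7SK, RMRP and RPPH1 was not tested. Which 3' end the counted H1-2 mRNA had, a stem-loop or a poly(A) tail, was not tested either. Of the linker histone genes of the germ line, H1-6, H1-7 and H1-8 were listed at 0, and the transcribed pseudogene H1-9P had 9 to 21 counts in a library (log2 fold change -0.52, SE 0.35, edgeR adjusted p = 0.316).

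Read sharing between the members could be judged from their sequences. The coding sequences of the 5 replication-dependent genes were 66.2% to 77.2% identical in pairs, highest for H1-2 and H1-4, and 50.7% to 53.8% identical to that of H1-10. None of the 50-base windows of H1-1 to H1-5 occurred in a GENCODE 29 transcript of another gene. Within GENCODE 29, an exact run of 50 bases thus named one gene. The release used for counting, the read length and the treatment of multimapping reads are not given in the sources used here.

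Of the 6 genes, 3 passed the filter on low counts, and 2 of these 3, H1-2 and H1-10, passed the threshold as lower in PARGi, beside 24.3% of all tested genes in either direction and 11% as lower. The same 2 had groups that did not overlap, with PARGi the lower, which held for 18.2% of the tested genes (38% did not overlap in one direction or the other). Because the genes were chosen with this contrast known, nothing is read from these shares. The 3 tested genes all had log2 fold changes below 0, where 10600 of the 20409 tested genes did and the median over all of them was -0.007.

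**Figure D3:**
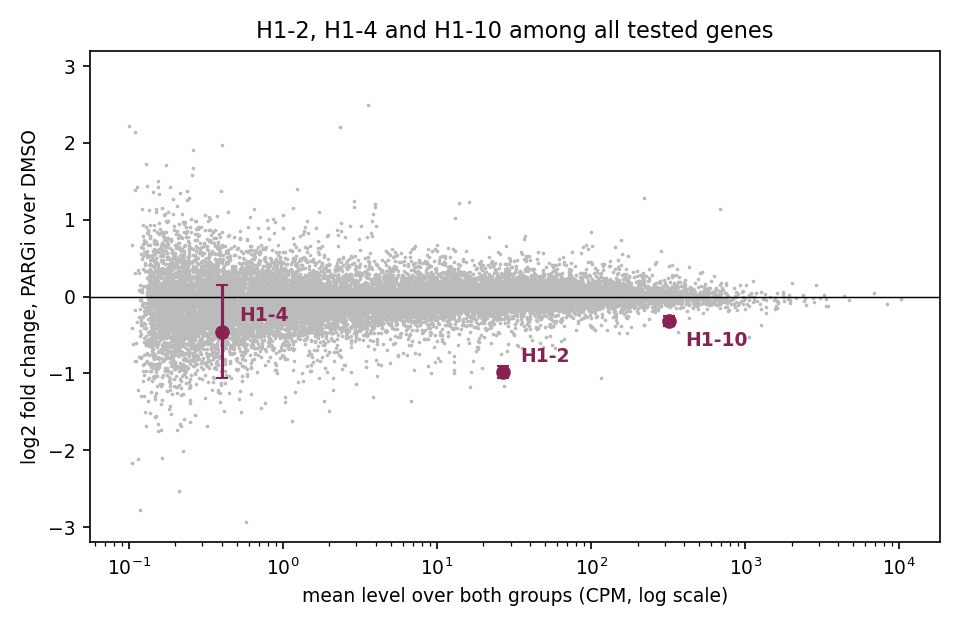
Log2 fold change of PARGi over DMSO against the mean level in CPM (log scale) for all tested genes reported here (grey points) and for H1-2, H1-4 and H1-10 (purple, with 95% confidence intervals). H1-2, at -0.98, lies below most genes of its level, H1-10 lies at -0.32, and the interval of H1-4 spans 0.

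The replication-dependent and replacement levels were then set against each other. After TMM scaling, the summed counts of H1-1 to H1-5 corresponded to 36.3, 37 and 35.7 CPM in DMSO and 19, 18.1 and 18.6 CPM in PARGi, a log2 ratio of the group means of -0.97. The ratios that follow were taken within each library, where no scaling is needed. For every 100 counts of H1-10 there were 10.3, 10.4 and 9.71 counts of H1-2 with DMSO, and 6.19, 6.21 and 6.75 with PARGi, in the order of the replicates. The groups did not overlap, and the ratio was lower in each PARGi library. It is a ratio of counted reads, and how far each library captured mRNA without a poly(A) tail was not tested. Corrected for RefSeq length (731 bases for H1-2, 1516 for H1-10), the level of H1-2 per 100 of H1-10 was 21 ± 0.76 with DMSO, against 13.2 ± 0.655 with PARGi (SD over 3 libraries in each group). In GENCODE 29, H1-2 and H1-10 span 642 and 1507 bases, so this level depends on the lengths used. The log2 ratio of summed replication-dependent counts to H1-10 counts was -3.28 ± 0.0546 with DMSO, against -3.93 ± 0.0653 with PARGi (SD over 3 libraries in each group), a difference of -0.65. It lay between -0.69 and -0.63 with any one library left out.

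**Figure D4:**
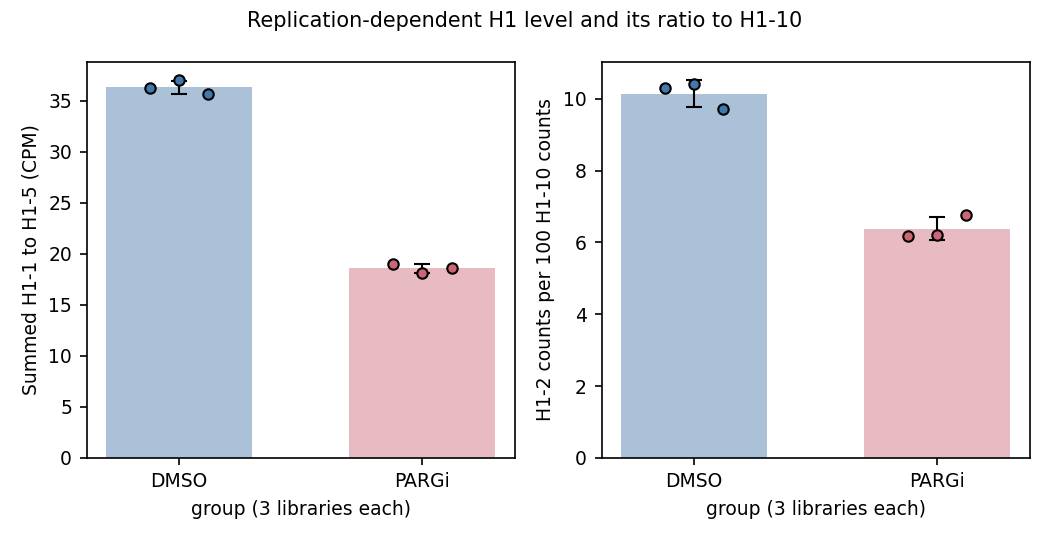
Left, summed level of H1-1 to H1-5 in CPM. Right, counts of H1-2 per 100 counts of H1-10 in the same library. Points are libraries, bars are means and error bars are SD (n = 3 each). Both quantities are lower in all 3 PARGi libraries, at 18.1 to 19 CPM against 35.7 to 37 CPM and at 6.19 to 6.75 against 9.71 to 10.4.

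Genes near H1-2 and H1-10 were called in both directions, where 11% of all tested genes were called lower and 13.2% higher. Within 100 kb of H1-2, 6 genes other than H1 genes were tested, of which 3 were called lower and 1 higher. H2AC6, a core histone gene, fell from 22.2 ± 0.481 to 13.7 ± 0.366 CPM (log2 fold change -0.70, edgeR adjusted p = 2.83e-11), and TRIM38, which encodes a ubiquitin ligase, rose from 26.9 ± 0.382 to 31.5 ± 0.593 CPM (edgeR adjusted p = 5.47e-05). Within 100 kb of H1-10, 6 genes were tested, 2 called lower, H1-10-AS1 among them, and 1 higher. The higher one was HMCES, which encodes a sensor of abasic DNA and rose from 74.5 ± 4.11 to 86 ± 2.7 CPM (edgeR adjusted p = 6.99e-05). Within 100 kb of H1-1, 2 of 5 tested genes were called lower and 1 higher. For H1-3, H1-4 and H1-5, 4 of 11, 4 of 12 and 1 of 7 were called lower and 0 higher. Several of these genes lie near more than 1 H1 gene.

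Genes whose profile over the 6 libraries was most like that of each H1 gene were ranked among 10140 genes of at least 10 CPM, by the root mean square difference of centred log2 CPM. For H1-2 they were DBP, R3HDML, PLCH1, CCL24 and MIAT, at differences of 0.0474 to 0.09. DBP, a clock output transcription factor, had 25.9 CPM with DMSO, against 13.6 CPM with PARGi. For H1-10 they were WDR81, IGFBP7, NCOR1P4, NUDT3 and PRPF40B, at differences of 0.019 to 0.0334. WDR81 had 65.2 CPM with DMSO, against 52.2 CPM with PARGi. With 2 groups of 3 libraries, such likeness rests mostly on the size of the difference between the groups.

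Genes that make, carry or act on H1 were compared through lists. Of 61 replication-dependent core histone genes listed, 59 had a row, 12 of these were at 0 in every library and 27 had enough counts for the test. Of these 27, 11 were lower, none was higher and 16 did not pass (40.7% of the tested called, median log2 fold change -0.34). Over all tested genes, 11% were lower and 24.3% were called in either direction. H2BC12 fell from 92 ± 0.548 to 68 ± 0.477 CPM (edgeR adjusted p = 1.4e-11). H1-2 at -0.98 lay below all 27. Of 9 tested replacement core histone genes, 3 were lower and 1 higher (median 0.02), and H3-3A, which encodes the H3.3 variant, fell by 0.16 on the log2 scale (edgeR adjusted p = 5.92e-05). H1-10 at -0.32 lay below all 9.

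The factors that transcribe and process histone mRNA showed small differences beside that of H1-2. Of 34 tested, 5 were higher, 1 was lower and 28 did not pass (median 0.023, 17.6% called, beside 24.3% of all tested genes). With upper-quartile scaling, 1 was higher and 5 were lower, so the direction of these small differences depends on the scaling. ERI1, the exonuclease that trims the histone stem-loop, rose from 36.4 ± 0.791 to 40.7 ± 0.135 CPM (edgeR adjusted p = 0.000726). NPAT, the coactivator of histone genes, was at 39.5 ± 1.92 and 40.8 ± 0.0991 CPM (log2 fold change 0.049, 95% interval -0.025 to 0.12, edgeR adjusted p = 0.357). SLBP, which binds the stem-loop, was at 57.2 ± 0.626 and 57 ± 1.75 CPM (-0.0061, interval -0.069 to 0.057, edgeR adjusted p = 0.917). The count of 6 called factors fell to 3 without DMSO replicate 1 and to 2 without PARGi replicate 1, 2 or 3.

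Chaperones of H1 and proteins that compete with it for nucleosomes gave 1 higher and 3 lower of 27 tested (14.8% called, median 0.017), or 1 higher and 6 lower with upper-quartile scaling. Among all tested genes, 13.2% were called higher and 11% lower, or 24.3% in either direction. PTMA, which encodes prothymosin alpha, an H1-binding chaperone, fell from 1690 ± 90.9 to 1530 ± 24.5 CPM (edgeR adjusted p = 0.000608), and DNAJC9, a chaperone of H3 and H4, rose from 167 ± 2.82 to 180 ± 2.37 CPM (edgeR adjusted p = 0.00306). The H1 chaperone gene NASP was at 683 ± 21.1 and 675 ± 2.57 CPM (log2 fold change -0.016, edgeR adjusted p = 0.693), and the competitors HMGB1 (-0.041, adjusted p = 0.232), HMGA2 (-0.027, adjusted p = 0.535) and PARP1 (0.025, adjusted p = 0.534) did not pass edgeR's test either. The count of 4 was 7 without DMSO replicate 3. Of 31 genes for modifiers and readers of H1 and for ADP-ribose turnover, 6 were higher and 4 lower (32.3% called, median 0.046), or 5 and 5 with upper-quartile scaling, which differed for the replacement core histone genes too (none higher, 3 lower). The cyclin and kinase that phosphorylate H1 at the entry to S phase, CCNE1 (78.2 ± 0.765 to 93.4 ± 0.47 CPM, edgeR adjusted p = 8.45e-08) and CDK2 (124 ± 2.4 to 143 ± 1.11 CPM, edgeR adjusted p = 2.09e-06), rose. OARD1 (40.3 ± 1.27 to 35.5 ± 1.09 CPM, edgeR adjusted p = 0.000642) and KDM4C (16.7 ± 0.256 to 14.9 ± 0.484 CPM, edgeR adjusted p = 0.00861) fell. CCNE1 is also counted among the S phase genes below.

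Replication-dependent H1 genes are transcribed mainly in S phase, so genes of that phase were set beside H1-2. Of 50 S phase genes, 24 were higher and 4 lower (56% called, median 0.075), where 13.2% of all tested genes were higher and 11% lower. The summed level of the 50 was 5990 to 6050 CPM in DMSO and 6290 to 6380 CPM in PARGi. RRM2, a subunit of ribonucleotide reductase, rose from 323 ± 2.71 to 392 ± 2.39 CPM (edgeR adjusted p = 3.47e-09), and MCM6, a subunit of the replicative helicase, fell from 150 ± 3.85 to 131 ± 3.14 CPM (edgeR adjusted p = 8.7e-06). The summed S phase level was thus higher in the libraries in which H1-2 was lower, and its part in the level of H1-2 was not tested.

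**Figure D5:**
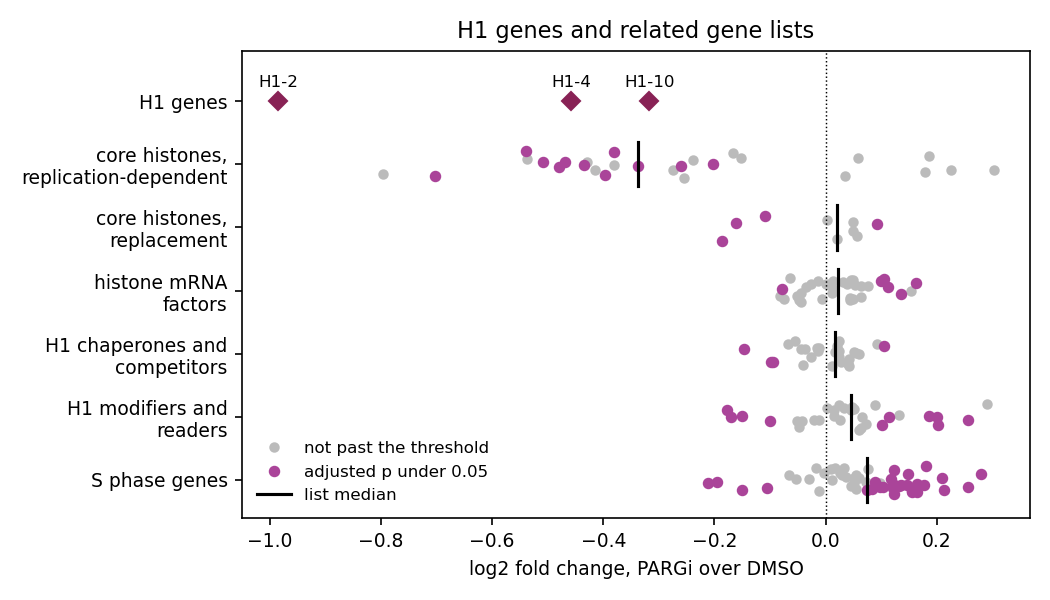
Log2 fold change of PARGi over DMSO for the 3 tested H1 genes (diamonds) and for the tested members of 6 related gene lists (purple, edgeR adjusted p under 0.05; grey, not past the threshold), with the list median as a black line. The medians of the replication-dependent core histone genes (-0.34) and of the S phase genes (0.075) lie on opposite sides of 0.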

How the data were processed

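RNA sequencing of 6 libraries was analysed from the deposited raw counts, whole numbers per gene and library with no header. Per the labels' protocols, total RNA was extracted and made into strand-keeping libraries. The submitters' processing notes name cutadapt 1.18, STAR 2.7.3a, SAMtools 1.9, DESeq2, deepTools and the build hg38, with no role or order. TruSeq Stranded Total RNA is the kit per the labels' protocols. The annotation release, counting options and filters are not given in the sources used here. Symbols were found for 60507 of 60708 identifiers, and 0 rows named no gene. Positions are those of GENCODE 29, whose release may differ from the authors'.

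Genes kept by filterByExpr (20409) were compared with edgeR 4.0.16 in R 4.3.3. Counts were scaled by TMM and fitted with glmQLFit, and the 3 PARGi and 3 DMSO libraries were compared by glmQLFTest (two-sided), with p-values adjusted by Benjamini-Hochberg. SE was obtained from the size of a log2 difference and the root of its F statistic, and 95% intervals from that SE. Alternatives were DESeq2 1.42.0, limma-voom (limma 3.58.1), other scalings and filters, a replicate block, a threshold of 0.01 and each library left out. The fit was tested on simulated counts. Biopython 1.88 aligned the coding sequences and matplotlib 3.10.9 drew the figures.

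The members, lists and rules were chosen with earlier results of these data known. The rule named the 6 members, 6 fixed genes, up to 2 higher and 2 lower called genes of each list by p, and 5 genes of like profile for H1-2 and for H1-10. Only those set beside an H1 result are given, and some genes are not reported here. Other genes were chosen after their values were seen. No library duplicated another: chi-square per degree of freedom was 2.19 to 5.61 within groups.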

Additional observations from a re-analysis of the deposited data

How the results depend on the processing

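The log2 fold change of H1-2 lay between -1.01 and -0.96 in all 13 alternatives that gave it, and that of H1-10 between -0.36 and -0.28. That of H1-4 ranged from -0.77 to -0.23, always below 0. With one library left out, 3607 to 4848 genes were called, and the count was 3117 at an adjusted p of 0.01. At that threshold 7 replication-dependent core histone genes, 3 replacement core histone genes and 1 histone mRNA factor were called. With one library left out, 2 to 7 histone mRNA factors and 3 to 7 H1 chaperones and competitors were called, and with upper-quartile scaling 7 of the latter.

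The replicate numbers share no stated day or culture. The deviations of same-numbered libraries correlated at -0.015, -0.031 and -0.16 over 10143 genes, and those of differently numbered libraries at -0.112 to 0.13. With only 3 libraries centred on each group mean, these values cannot show whether the numbers pair the libraries. A replicate block called 4553 genes and gave -0.98 for H1-2, -0.32 for H1-10, -0.49 for H1-4, -0.97 for the summed replication-dependent level and -0.65 for its ratio to H1-10. Low counts limit the precision for H1-1 and H1-4. For H1-3 and H1-5, at 0 in every library, whether depth, the capture of their mRNA or the counting of reads is the limit was not tested.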
